A study of Mus musculus with 188 samples.

Results

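Expression of 9 genes that respond to glucocorticoids, to metals or to both was followed through the aortas of an inbred mouse panel. The genes were Ddit4, Fkbp5, Tsc22d3, Sgk1, Zbtb16, Cdkn1a, Pdk4, Mt1 and Mt2, and every probe set that the platform's annotation gives to one of these symbols alone was taken. This gave 13 probe sets for 8 genes, of 22327 probe sets and 11725 named genes in all. Mt2 carried no probe set of its own and was not analysed here. RNA of the aorta of male mice was measured on 188 HT_MG-430A arrays of Affymetrix, short-oligonucleotide arrays that give 1 level per probe set. The mice belonged to 94 strains, were 16 weeks old, ate chow and received no treatment. The strains were 28 AXB/BXA, 28 BXD and 10 BXH recombinant inbred strains and 28 other inbred strains, with 59, 53, 21 and 55 arrays. The AXB/BXA strains descend from A/J and C57BL/6J, the BXD strains from DBA/2J and C57BL/6J, and the BXH strains from C3H/HeJ and C57BL/6J. These 4 parental strains are among the 28 inbred strains. The BXD strains BXD24/TyJ-Cep290<rd16>/J and BXD29-Tlr4<lps-2J>/J carry an allele of Cep290 and of Tlr4 in their names. Both were kept in all tests of the BXD family. In all, 79 strains had 2 arrays, 9 had 1, 3 had 3 and 3 had 4. Whether a strain's arrays stand for different animals is not stated in the labels, and each p-value then measures the spread between arrays alone, part of which may be technical.

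Glucocorticoids enter cells, bind the glucocorticoid receptor and move it to the nucleus, where it binds response elements and raises the transcription of a set of genes found in many tissues. In blood vessels the hormone acts on smooth muscle tone and on inflammation. Metallothioneins bind zinc and copper through their cysteines, and are induced by metals through the transcription factor Mtf1 and by glucocorticoids. Cdkn1a is also a target of p53, and Pdk4 is also raised in fasting through FoxO and PPAR factors.

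Promoters of the member genes were searched because several of the genes varied together. The windows were the 250 bases before the RefSeq transcription starts of build GRCm38.p6, read on both strands. Of 32851 such windows in the mouse table, 16 belonged to 8 of the 9 genes, and Zbtb16 had no entry. Sgk1 had 6 of these windows and Tsc22d3 had 3, so a gene with more windows had more places for a match. The glucocorticoid response element palindrome was searched by name in a form that allows either purine or either pyrimidine at some bases. A match therefore need not be an exact inverted repeat. The palindrome lay in 2 of the 16 windows, of Mt1 and Sgk1, and in 0.064% of all windows. The hexamer AGAACA, part of that element in many genes, lay in 4 of the 16 windows, of Sgk1 and Tsc22d3, and in 16.1% of all windows. The core of the metal response element, TGCACNC or TGCGCNC, lay in 3 of the 16 windows, near the 21.4% of all windows. They were windows of Ddit4, Mt1 and Mt2. The core of a p53 element, CATGNNNNNNCATG, lay in 1 of the 16 windows, of Cdkn1a, and in 0.490% of all windows. The E-box CACGTG lay in 2 of the 16 windows, of Fkbp5 and Sgk1, and in 6.02% of all windows. The FoxO site GTAAACA lay in 3.17% of all windows and in 0 of the 16. The windows with a palindrome or a p53 core are given here, all on the + strand, with those motifs and the metal core in capitals. They are Mt1 at chr8:94178839-94179088, Sgk1 at chr10:21993640-21993889 and Cdkn1a at chr17:29090729-29090978.
Mt1: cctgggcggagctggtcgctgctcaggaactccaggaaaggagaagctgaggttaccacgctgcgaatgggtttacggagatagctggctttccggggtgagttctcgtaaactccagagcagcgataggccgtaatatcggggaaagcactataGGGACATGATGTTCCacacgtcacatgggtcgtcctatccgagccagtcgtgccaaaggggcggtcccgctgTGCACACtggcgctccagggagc
Sgk1: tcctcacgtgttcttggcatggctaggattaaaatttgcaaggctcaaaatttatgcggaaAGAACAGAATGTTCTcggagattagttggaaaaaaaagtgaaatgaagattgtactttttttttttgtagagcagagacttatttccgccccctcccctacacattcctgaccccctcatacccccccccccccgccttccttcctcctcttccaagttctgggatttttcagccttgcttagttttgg
Cdkn1a: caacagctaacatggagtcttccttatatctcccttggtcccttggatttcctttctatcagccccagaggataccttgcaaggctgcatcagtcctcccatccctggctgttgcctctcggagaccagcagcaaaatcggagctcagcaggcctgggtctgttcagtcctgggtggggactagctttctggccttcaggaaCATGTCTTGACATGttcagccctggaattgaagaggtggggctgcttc
The palindrome of Mt1 begins 95 bases before the start and its metal core 23 bases before it. The palindrome of Sgk1 begins 189 bases before the start of that transcript and holds an AGAACA hexamer on each strand. The p53 core of Cdkn1a begins 48 bases before its start. These are matches of letters and no measurement of binding.

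The aortic label was set against markers of vessel wall and of other tissues, on the log2 scale of the deposited values. The 6 measured smooth muscle markers averaged 8.13, the 8 endothelial markers 7.31 and the 6 adventitial fibroblast markers 7.89. Markers of tissue around the vessel were measured at 10.80 (8 of brown adipocytes), 9.89 (6 of adipocytes), 9.32 (7 of cardiac muscle), 8.63 (3 erythroid) and 8.04 (9 of skeletal muscle). Levels of different probe sets cannot be ranked, so these means do not settle the tissue makeup. A marker score was the mean, over a list, of log2 levels centred on all arrays. The skeletal muscle score ranged over arrays between -4.39 and 4.33, the thymocyte score between -1.17 and 5.09 and the squamous epithelium score between -1.23 and 4.24. In 68 of 188 arrays the thymocyte or the squamous score was above 1, and results were also computed without those arrays. In these bulk samples, fewer cells of a type and less RNA per cell cannot be told apart. Arrays of a strain correlated with each other at a median r of 0.973, with 0.813 as the lowest.

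**Figure D1:**
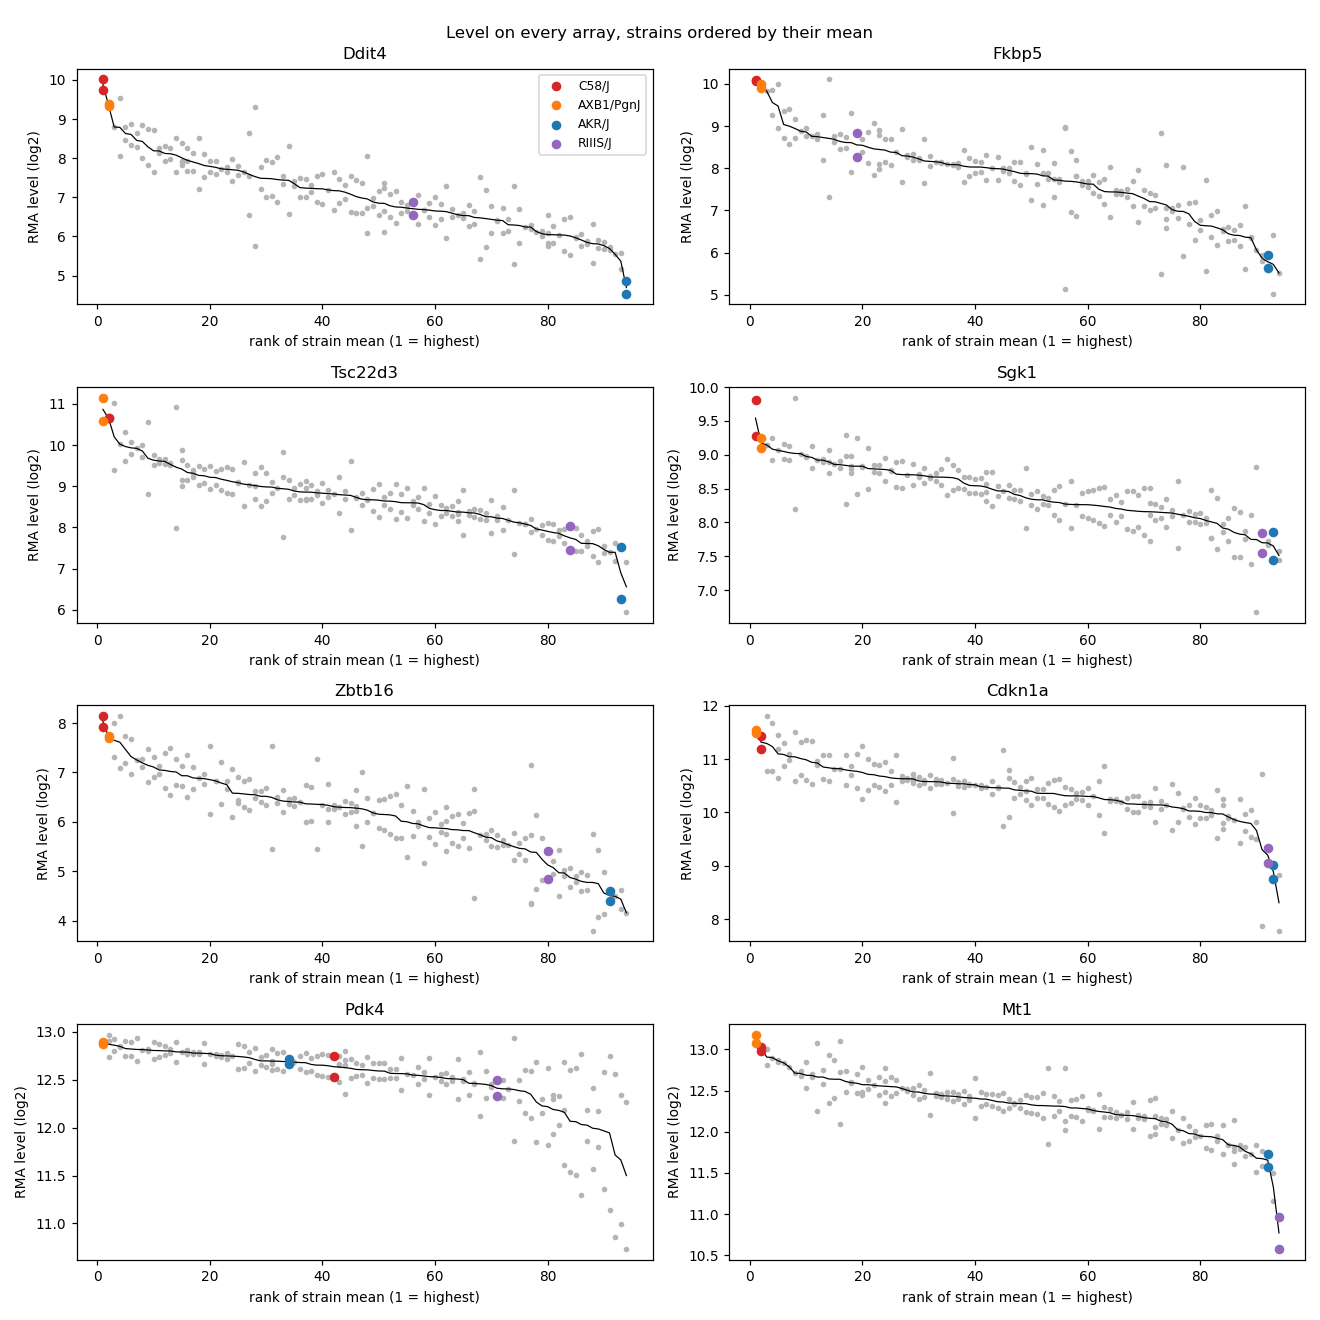
Level of each gene on every array (log2, y axis) against the rank of its strain mean (x axis, 1 is the highest of 94 strains); the line joins strain means and 4 strains are coloured. C58/J and AXB1/PgnJ lie at the upper left for every gene but Pdk4, where AXB1/PgnJ alone does, and AKR/J lies at the lower right for every gene but Pdk4.

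The genes differed in how far they spread over strains. Ddit4, which restrains mTORC1 signalling under stress, spanned 5.19 on the log2 scale of strain means, a 36.4-fold range. Fkbp5, a co-chaperone that lowers the receptor's affinity for hormone, spanned 4.57, a 23.7-fold range. Tsc22d3, which encodes the anti-inflammatory protein GILZ, spanned 4.30, a 19.8-fold range. Zbtb16, a zinc finger transcription factor, spanned 3.87, a 14.7-fold range. Cdkn1a, the cyclin-dependent kinase inhibitor p21, spanned 3.21, a 9.26-fold range. Mt1 spanned 2.35, a 5.11-fold range, and Sgk1, a kinase that regulates ion channels and transporters, spanned 2.03, a 4.09-fold range. Pdk4, which inhibits pyruvate dehydrogenase and so spares glucose, had the narrowest span, 1.38, a 2.61-fold range. The SD within strains was 0.594 for Ddit4, 0.675 for Fkbp5, 0.341 for Pdk4 and 0.205 for Mt1.

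Strain explained a share of the array variance of all these genes. The share is given as the intraclass correlation, the among-strain part of the variance, over 84 strains with 2 or more arrays (177 arrays). It was 0.711 for Mt1 (95% interval 0.593 to 0.800), 0.654 for Ddit4 (0.519 to 0.758) and 0.647 for Tsc22d3 (0.510 to 0.753). Zbtb16 had 0.597, Fkbp5 0.554, Cdkn1a 0.508 and Sgk1 0.506. Pdk4 had 0.207 (0.009 to 0.394), close to the median of all probe sets, 0.182. The values named here are of each gene's probe set with the highest mean level. The other Mt1 probe set, 1451612_at, had 0.387 (0.202 to 0.549). In limma's moderated F test across strains, with Benjamini-Hochberg adjustment over 22327 probe sets, all 13 member probe sets passed, where 46.5% of all probe sets did. The members were chosen with earlier results of these data known, so this count is a description. The adjusted p was 4.63e-12 for Ddit4 and 0.0386 for Pdk4, and the other 12 probe sets passed in every alternative that tested them. Pdk4 did not pass in 4 of the alternatives given below, nor without AXB24/PgnJ, BTBR T<+> tf/J, BXA16/PgnJ, BXD2/TyJ, BXH4/TyJ or KK/HlJ, where its adjusted p lay between 0.0509 and 0.0593.

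**Figure D2:**
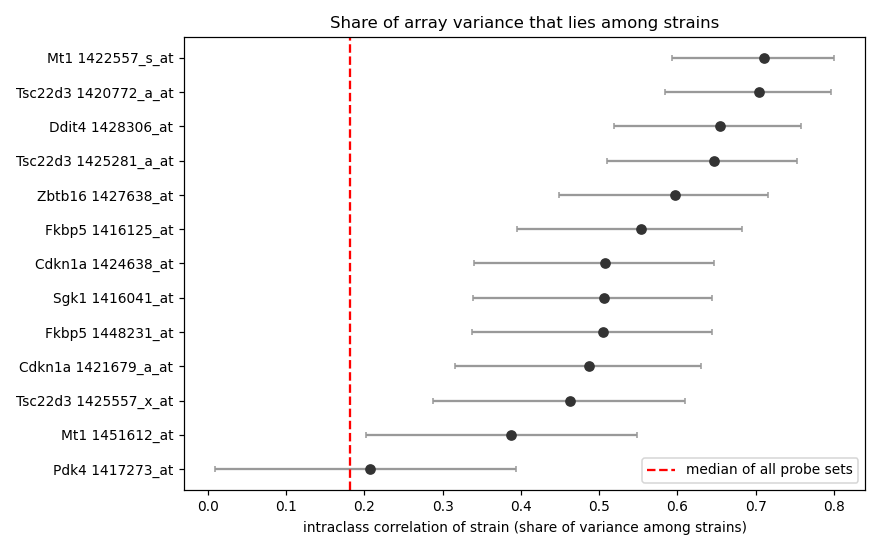
Intraclass correlation of strain for each member probe set (points, x axis) with its 95% interval (bars), over 84 strains with 2 or more arrays; the dashed line is the median of all probe sets. Pdk4 lies nearest to that line and the Mt1 probe set 1422557_s_at farthest from it, while the other Mt1 probe set, 1451612_at, is at 0.387.

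Where a gene had several probe sets, they were compared over the 94 strain means. For Tsc22d3, 1425281_a_at had r = 0.973 with 1420772_a_at and 0.687 with 1425557_x_at. The Fkbp5 pair had r = 0.952 and the Cdkn1a pair 0.872. For Mt1, 1422557_s_at and 1451612_at had r = 0.665. The suffix _s_at marks a probe set that can match several transcripts, so its signal may include that of related metallothionein transcripts, and their part was not tested. The probe set with the highest mean level stands for each gene below unless another is named.

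The same strains stood at the ends of several lists. AXB1/PgnJ was among the 4 highest strains for all 8 genes, and C58/J for 7 of 8, Pdk4 being the exception. AKR/J was among the 4 lowest for the same 7 genes. BXD9/TyJ was among the 4 lowest for Fkbp5, Tsc22d3, Cdkn1a and Mt1. These strains were picked out by their values, so their place is a description with no test. Brown adipocyte scores were -1.12 and -1.01 on the AXB1/PgnJ arrays, -0.54 and -1.20 on the C58/J arrays and -0.03 and -0.23 on the AKR/J arrays, where the median over arrays was 0.12, and their part was not tested.

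Ddit4 had 10.02 and 9.74 on the 2 C58/J arrays and 9.37 and 9.33 on the 2 AXB1/PgnJ arrays. The AKR/J arrays gave 4.54 and 4.85, and the median over strains was 6.97. The gap between AKR/J and CBA/J, the next strain up at 5.37, was the only step between neighbouring strains above the pooled SD within strains, 0.594. Fkbp5 had 10.07 and 10.09 on the C58/J arrays, 9.89 and 10.01 on the AXB1/PgnJ arrays, and 5.94 and 5.62 on the AKR/J arrays. BXD39/TyJ, with a single array, was the lowest at 5.51, and none of the 93 steps between neighbouring strains exceeded the SD within strains, 0.675. Tsc22d3 had 10.58 and 11.15 on the AXB1/PgnJ arrays, 10.65 on both of C58/J, and 7.53 and 6.27 on those of AKR/J. BXD28/TyJ averaged 6.56 ± 0.87 (SD, n = 2), the lowest Tsc22d3 mean.

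Sgk1 had 9.27 and 9.81 on the C58/J arrays and 9.09 and 9.25 on the AXB1/PgnJ arrays. The lowest Sgk1 mean was that of BTBR T<+> tf/J, 7.51 ± 0.08, followed by AKR/J with 7.65 ± 0.29 (SD, n = 2 each). Zbtb16 had 8.13 and 7.93 on the C58/J arrays and 7.70 and 7.74 on those of AXB1/PgnJ. The lowest Zbtb16 value was 4.16, on the single BXD11/TyJ array, followed by the means of C3H/HeJ, 4.43 ± 0.27, BXD39/TyJ, 4.49 on a single array, and AKR/J, 4.51 ± 0.14 (SD, n = 2 each where given). Cdkn1a had 11.50 and 11.54 on the AXB1/PgnJ arrays, 11.19 and 11.44 on those of C58/J, and 8.76 and 9.02 on those of AKR/J. The lowest Cdkn1a mean was that of BXD9/TyJ, whose arrays gave 8.83 and 7.79.

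Mt1 had 13.18 and 13.07 on the AXB1/PgnJ arrays, 13.03 and 12.98 on the C58/J arrays, and 11.58 and 11.74 on the AKR/J arrays. RIIIS/J was the lowest, with 10.58 and 10.97, and its step of 0.557 to BXD9/TyJ was the widest between neighbouring strains, against an SD within strains of 0.205. The RIIIS/J arrays had thymocyte scores of 4.84 and 5.09 and smooth muscle scores of -0.86 and -1.30. On the same arrays Fkbp5 had 8.27 and 8.84, above its median over strains of 7.90. The part of other tissue in the RIIIS/J level of Mt1 was not tested.

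Pdk4 was near its upper end in most arrays, with a lower quartile of 12.47, a median of 12.62 and a highest value of 12.97. In 10 of 188 arrays it lay more than 1 below that median, each from a different strain. The erythroid score was above 1 on 9 of those 10 arrays, where 21 of 188 arrays had such a score, and the thymocyte or squamous score on 5 of the 10. The part of the erythroid signal was not tested. In KK/HlJ the arrays gave 10.73 and 12.27, in SJL/J 10.99 and 12.34, in C57L/J 11.14 and 12.75, and in AXB23/PgnJ 12.56 and 10.86. The erythroid scores of these pairs of arrays, in the same order, were 1.48 and 1.84, 1.42 and -0.62, 1.10 and -0.78, and -0.34 and 1.55. These 4 strains had the lowest Pdk4 means, between 11.50 and 11.94.

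Ddit4 was lower in DBA/2J and in C3H/HeJ than in C57BL/6J, and Zbtb16, Cdkn1a and Mt1 were lower in C3H/HeJ. For the main probe set of the 8 genes, every array of A/J lay below every C57BL/6J array for 5 genes, and above them for Pdk4. Every DBA/2J array lay below for 6 genes, and every C3H/HeJ array for 7. The share of all probe sets whose arrays separate in this way was not computed, so these counts are a description. The 3 comparisons share the 3 C57BL/6J arrays, so they are not independent. Over the 13 probe sets the median log2 difference was -0.71 for A/J, -1.08 for DBA/2J and -0.81 for C3H/HeJ, against -0.01, 0.01 and -0.02 over all probe sets.

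**Figure D3:**
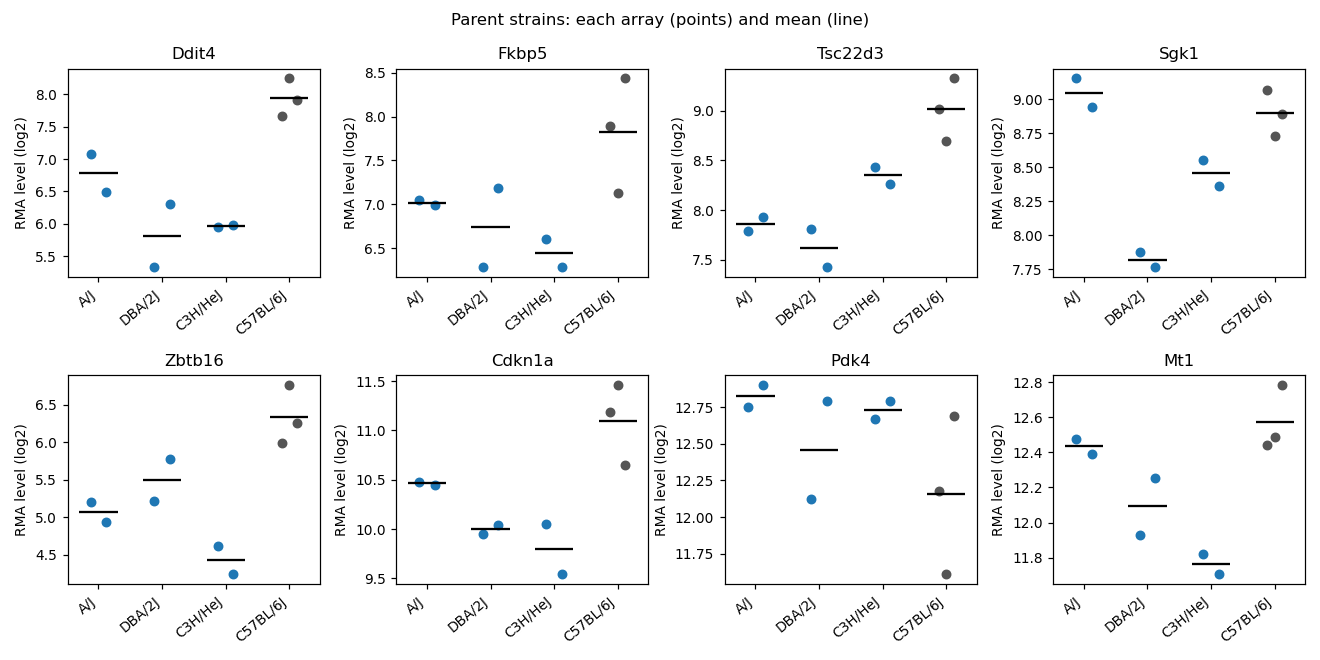
Level of each gene (log2, y axis) on the arrays of A/J, DBA/2J and C3H/HeJ (2 each) and of C57BL/6J (3), with the mean of each strain as a line. C57BL/6J has the highest mean for 6 of the 8 genes, and the lowest for Pdk4.

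Ddit4 gave 7.08 and 6.48 in A/J, 5.32 and 6.31 in DBA/2J, 5.95 and 5.98 in C3H/HeJ, and 7.66, 8.25 and 7.92 in C57BL/6J. All 6 arrays of the other parents lay below the 3 of C57BL/6J. Ddit4 was lower in DBA/2J, with a log2 difference of -2.13 ± 0.54 (SE, 4.38-fold lower; limma, adjusted p = 0.0318) and in C3H/HeJ, with -1.98 ± 0.54 (3.95-fold lower; adjusted p = 0.0351). In A/J the difference was -1.16 ± 0.54 and did not pass (adjusted p = 0.512). Among all probe sets 0.287% were higher and 0.237% lower in DBA/2J at this threshold, and Ddit4 was the only member among them. The DBA/2J call for Ddit4 was lost when any 1 of the 5 DBA/2J and C57BL/6J arrays was left out, with log2 differences between -2.62 and -1.64 and limma adjusted p-values between 0.0538 and 0.640. It was also lost with the block of array numbers as a covariate (adjusted p = 0.0917), without the arrays of high thymocyte or squamous score (0.0755) and in a fit of the parents alone (0.0672).

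In C3H/HeJ, Ddit4, Zbtb16, Cdkn1a and Mt1 passed, 4 of the 13 probe sets, all lower, where 0.511% of all probe sets were higher and 0.735% lower. Zbtb16 gave 4.62 and 4.24 in C3H/HeJ, and 5.99, 6.76 and 6.26 in C57BL/6J, a difference of -1.90 ± 0.52 (SE, 3.73-fold lower; limma, adjusted p = 0.0360). Cdkn1a gave 10.05 and 9.54 in C3H/HeJ, and 11.19, 11.46 and 10.65 in C57BL/6J, a difference of -1.30 ± 0.37 (2.47-fold lower; adjusted p = 0.0487). Mt1 gave 11.82 and 11.71 in C3H/HeJ, and 12.44, 12.49 and 12.78 in C57BL/6J, a difference of -0.81 ± 0.19 (1.75-fold lower; adjusted p = 0.00760). The arrays of the strains did not overlap for any of these genes, and the share of all probe sets without overlap was not computed. Without either C3H/HeJ array 0 of the 13 passed, and without C57BL/6J array 1, 2 or 3 the counts were 1, 1 and 5. With the block of array numbers as a covariate 1 passed, and without the arrays of high thymocyte or squamous score, none of them parental, 1 passed. In both it was Mt1. The Cdkn1a call was also lost with BXD32/TyJ included (limma, adjusted p = 0.0512) and after centring of the arrays on their medians (0.0536).

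Marker scores differed between the same arrays. The adventitial fibroblast score was 0.85 and 0.84 in C3H/HeJ, and -0.06, -0.28 and 0.27 in C57BL/6J, and 1 of the 6 fibroblast markers passed, higher in C3H/HeJ. The B cell score was 0.73 and 1.76 in C3H/HeJ, and -1.21, -1.32 and -1.62 in C57BL/6J, with 1 of 4 markers higher. The macrophage score was 0.90 and 0.77 in C3H/HeJ, and -0.33, -0.06 and 0.23 in C57BL/6J, and 0 of 8 markers passed in limma. The skeletal muscle score was 1.58 and 0.76 in C3H/HeJ, and -3.49, -3.15 and 0.07 in C57BL/6J, and 0 of 9 markers passed. In DBA/2J the fibroblast score was 0.37 and 0.50, the macrophage score 0.28 and 0.63 and the B cell score -0.36 and -0.34, each above all 3 C57BL/6J arrays, and 0 of these markers passed. The smooth muscle score was -0.89 and 0.18 in C3H/HeJ, -1.78 and 0.47 in A/J, 1.08 and -0.76 in DBA/2J, and 1.06, 0.66 and 0.18 in C57BL/6J. The part of these differences in the members' values was not tested beyond the fit with marker scores as covariates. Those scores were thymocyte, squamous epithelium, skeletal muscle and brown adipocyte. In that fit 5 of the 13 passed in C3H/HeJ, where 808 of all probe sets did, and 3 in DBA/2J, where 186 of all did.

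In A/J, 0 of the 13 probe sets passed in limma, where 0.269% of all probe sets were higher and 0.376% lower. The unadjusted limma p was below 0.05 for 6 of the 13, and for 1991 of all 22327. Tsc22d3 gave 7.79 and 7.93 in A/J, 7.81 and 7.42 in DBA/2J, 8.44 and 8.27 in C3H/HeJ, and 9.02, 8.70 and 9.33 in C57BL/6J. All arrays of the other parents lay below those of C57BL/6J, and the differences of -1.16, -1.40 and -0.66 had limma adjusted p-values of 0.342, 0.214 and 0.522. The second Tsc22d3 probe set, 1420772_a_at, had -1.34 ± 0.36 in DBA/2J (adjusted p = 0.0559). Sgk1 gave 9.16 and 8.94 in A/J, 7.87 and 7.76 in DBA/2J, 8.55 and 8.36 in C3H/HeJ, and 9.07, 8.73 and 8.89 in C57BL/6J. A/J overlapped C57BL/6J for this gene, and DBA/2J differed by -1.08 ± 0.30 (adjusted p = 0.0898). Fkbp5 gave 7.05 and 6.99 in A/J, 6.29 and 7.19 in DBA/2J, 6.61 and 6.28 in C3H/HeJ, and 7.89, 7.13 and 8.44 in C57BL/6J. DBA/2J overlapped C57BL/6J here, and no Fkbp5 difference passed.

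Pdk4 gave 12.75 and 12.90 in A/J, 12.12 and 12.79 in DBA/2J, 12.67 and 12.79 in C3H/HeJ, and 12.18, 11.61 and 12.69 in C57BL/6J. The 3 C57BL/6J arrays spanned more than the arrays of A/J and C3H/HeJ did. The differences of 0.67, 0.30 and 0.57 were the only positive ones shared by all 3 parents, and did not pass (limma, adjusted p = 0.512, 1.00 and 0.419).

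Strain differences within the recombinant inbred families were tested without the parental arrays. In the BXD family 11 of 13 member probe sets passed limma's moderated F test, over 22 strains and 46 arrays, where 15.1% of all probe sets did. The intraclass correlation there was 0.799 for Fkbp5, 0.762 for Ddit4, 0.739 for Cdkn1a, 0.737 for Mt1, 0.710 for Tsc22d3, 0.565 for Zbtb16 and 0.512 for Sgk1. Pdk4, at 0.471, did not pass (limma, adjusted p = 0.0527), nor did the Mt1 probe set 1451612_at (adjusted p = 0.0909). The Pdk4 result turned with the setting. It passed in 4 of 8 alternatives, over which its limma adjusted p ran between 0.0331 and 0.360. With 1 strain left out in turn, the outcome was unchanged in 16 of 22 fits for Pdk4 and in 20 of 22 for 1451612_at. The Sgk1 call was lost with BXD32/TyJ included (limma, adjusted p = 0.0638), without BXD38/TyJ (0.0523) and without the arrays of high thymocyte or squamous score (0.125). Without those arrays the calls of Zbtb16 (0.0773) and of the Tsc22d3 probe set 1425557_x_at (0.105) were lost as well. In the AXB/BXA family 3 of 13 passed, over 27 strains and 58 arrays, where 3.81% of all did. They were Ddit4 at 0.509 (limma, adjusted p = 0.0196) and the Tsc22d3 probe sets 1425281_a_at at 0.598 and 1420772_a_at at 0.644. All 3 calls were lost without the arrays of high thymocyte or squamous score, with limma adjusted p-values of 0.277, 0.231 and 0.187. The Ddit4 call was also lost without AXB19b/PgnJ (limma, adjusted p = 0.0524). Without AXB1/PgnJ 1 of the 13 passed there, and without AXB24/PgnJ or BXA14/PgnJ 5 did. In the BXH family 1 of 13 passed, over 9 strains and 20 arrays, where 1.26% of all did. It was the Mt1 probe set 1451612_at, at 0.825, while 1422557_s_at was at 0.741 (limma, adjusted p = 0.0968). The BXH count was 4 without BXH2/TyJ, 2 without BXH9/TyJ or BXH20/KccJ and 0 without BXH4/TyJ or BXH6/TyJ. The difference between families in these counts was not tested, and the families differed in strains and arrays.

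**Figure D4:**
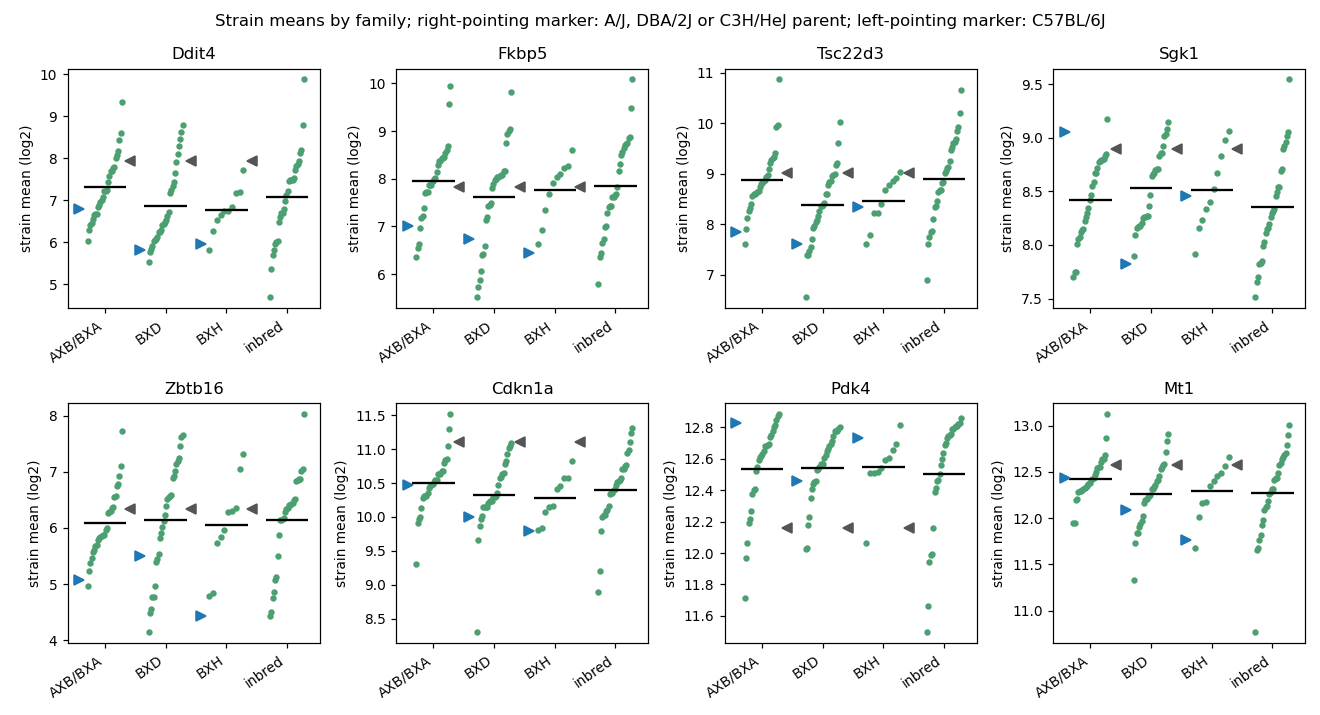
Strain means (log2, y axis) of each gene in the AXB/BXA, BXD and BXH families and the other inbred strains, with the family mean as a line. The right-pointing marker is the A/J, DBA/2J or C3H/HeJ parent of that family and the left-pointing marker its C57BL/6J parent; most Sgk1 means of AXB/BXA lie below both.

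Family members often lay outside the range of their parents. For Sgk1, 27 of 28 AXB/BXA strains lay below both A/J (9.05) and C57BL/6J (8.90), while 23 of 28 BXD strains lay between DBA/2J (7.82) and C57BL/6J. For Fkbp5, 18 of 28 AXB/BXA, 15 of 28 BXD and 6 of 10 BXH strains lay above both parents. For Zbtb16, 14 BXD strains lay above and 8 below both parents, and the family ran between 4.16 in BXD11/TyJ and 7.65 in BXD33/TyJ. For Cdkn1a all 10 BXH strains and 24 of 28 BXD strains lay between their parents, as did 21 of 28 BXD and 9 of 10 BXH strains for Ddit4. For Mt1, 16 of 28 AXB/BXA strains lay below both parents, whose means were 12.43 and 12.57. For Pdk4, 20 of 28 BXD strains lay above both parents. For Sgk1 and Mt1 in AXB/BXA and for Pdk4 in BXD, the parental means lay closer together than the SD within strains. That SD was 0.336, 0.205 and 0.341. The parental means rest on 2 or 3 arrays each, and no share over all genes was computed, so these counts are a description.

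Differences between family means passed for 0 of the 13 member probe sets. The contrast used 1 mean per strain and left BXD32/TyJ out. Here and in the F test within AXB/BXA, the lines AXB19/PgnJ, AXB19a/PgnJ and AXB19b/PgnJ counted as separate strains. Relatedness between strains was not modelled. Tsc22d3 averaged 8.88 ± 0.66 in 28 AXB/BXA strains, against 8.35 ± 0.74 in 27 BXD strains (SD), a difference of 0.53 ± 0.18 (SE; limma, adjusted p = 0.114). Ddit4 averaged 7.32 ± 0.78 in AXB/BXA, against 6.83 ± 0.95 in BXD, a difference of 0.48 ± 0.22 (adjusted p = 0.298). Mt1 averaged 12.43 ± 0.24 in AXB/BXA, against 12.24 ± 0.35 in BXD (adjusted p = 0.267). The ranges of these families overlapped widely. The unadjusted limma p was below 0.05 for 6 of 13 probe sets in AXB/BXA against BXD, and for 3017 of all 22327. It was so for 0 of the 13 in AXB/BXA against BXH and in BXD against BXH, and for 1625 and 1163 of all. After adjustment, 0.909% of all probe sets were higher and 1.31% lower in AXB/BXA than in BXD. The shares were 0.0761% and 0.246% in AXB/BXA against BXH, and 0.0537% and 0.13% in BXD against BXH.

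Arrays of the same strain could differ by far more than their usual spread. Over 85 strains with 2 or more arrays, the median difference between a strain's highest and lowest array was 0.540 for Ddit4, 0.528 for Zbtb16, 0.451 for Fkbp5 and 0.388 for Tsc22d3. It was 0.298 for Cdkn1a, 0.275 for Sgk1, 0.198 for Pdk4 and 0.171 for Mt1. The difference was above 1 in 20 strains for Fkbp5, 13 for Ddit4, 12 for Zbtb16, 10 each for Tsc22d3 and Pdk4, 6 for Cdkn1a, 3 for Sgk1 and 1 for Mt1.

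In NOD/ShiLtJ 7 of the 8 genes stood higher on the first array than on the second. On its first and second arrays Ddit4 had 9.30 and 5.76, Fkbp5 10.11 and 7.31, Tsc22d3 10.93 and 7.996, and Sgk1 9.84 and 8.20. Zbtb16 had 7.53 and 5.45, Cdkn1a 11.35 and 10.53, and Mt1 13.08 and 12.25, while Pdk4 had 12.72 and 12.78. Brown adipocyte scores of these arrays were -1.90 and -0.13 and skeletal muscle scores 0.34 and -3.27, and their part was not tested.

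In BXA14/PgnJ the second array was the lower for all 8 genes, with Cdkn1a at 10.73 and 7.88, Fkbp5 at 8.84 and 5.49, Ddit4 at 7.29 and 5.29, Sgk1 at 8.82 and 6.67, and Pdk4 at 12.69 and 11.84. In AXB24/PgnJ the first of 3 arrays was the lowest for all 8 genes. Its Fkbp5 levels were 5.14, 8.99 and 8.95, its Ddit4 levels 6.56, 7.54 and 8.66, and its Mt1 levels 12.09, 12.72 and 13.10. That first array carried the number 1038 in its title and the others 1131 and 1132, so they lie apart in the numbering.

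Numbers in the titles run in a first block to 1038 (92 arrays) and a second from 1067 (96 arrays), and what they stand for is not stated. Arrays of a strain mostly carry consecutive numbers, so strain and place in the numbering cannot be told apart for most strains. The median absolute difference between arrays with consecutive numbers was 0.483 within a strain (87 pairs) and 0.780 between strains (86 pairs) for Ddit4, against 0.973 over all 17472 pairs of different strains. For Fkbp5 these medians were 0.451, 0.867 and 0.957, for Tsc22d3 0.340, 0.577 and 0.750, and for Mt1 0.160, 0.354 and 0.332. Same-strain arrays that were not consecutive (19 pairs) differed by 0.546 for both Ddit4 and Fkbp5, 0.440 for Tsc22d3 and 0.341 for Mt1. For Mt1 the medians of the non-consecutive pairs and of pairs of different strains were 0.341 and 0.332. Block means were 6.95 and 7.18 for Ddit4 and 8.35 and 8.53 for Sgk1.

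The members varied together over strains, apart from Pdk4. Over the 94 strain means the 21 pairs among the other 7 genes had Pearson r between 0.040 and 0.769, with a median of 0.560. All 21 were positive, and 20 had a permutation p (two-sided, 100000 resamples) below 0.05 after Benjamini-Hochberg adjustment over 152 relations. Pdk4 paired with the others at r between -0.227 and 0.384, and only its pair with Sgk1 passed (r = 0.384, rho = 0.401, adjusted p = 0.00081). Each r here rests on means that share arrays between genes, and the same 3 strains lay at the ends for most of them. The permutations treat the strains as independent, while recombinant inbred strains of a family share their parents, so the p-values may be too small. The size of that effect was not tested.

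**Figure D5:**
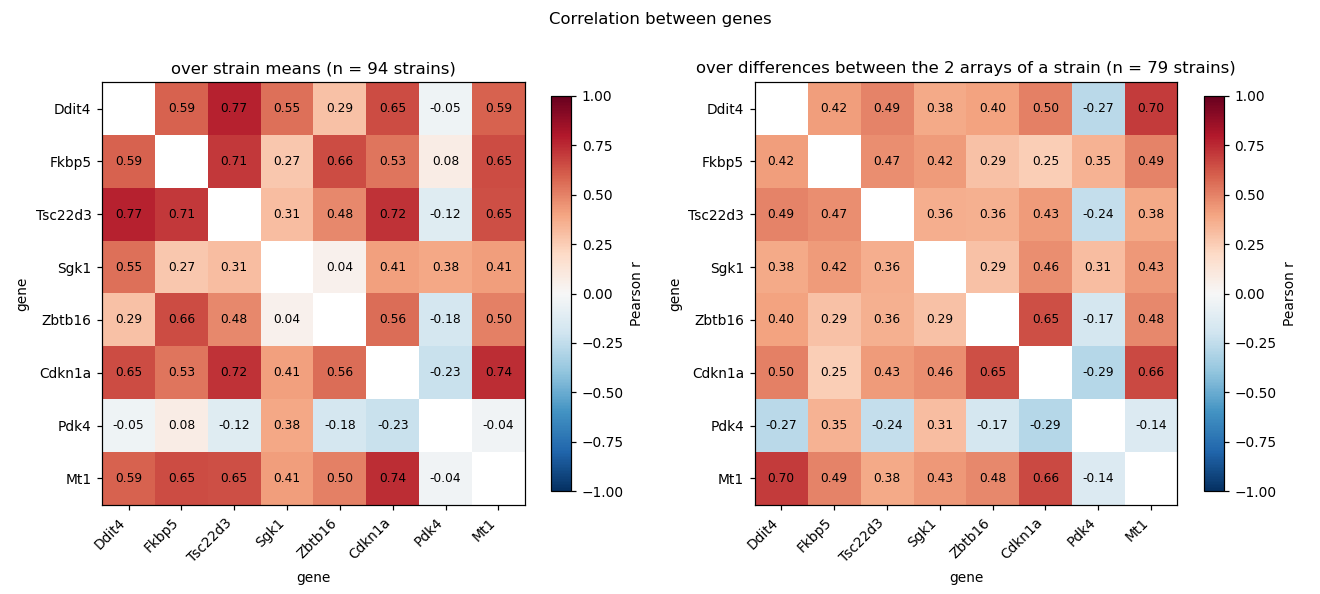
Pearson r between genes over 94 strain means (left) and over the difference between the arrays of 79 strains with 2 arrays (right), with the colour scale running from -1 to 1. Pairs without Pdk4 are positive in both panels, and most pairs with Pdk4 lie near or below 0.

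Ddit4 and Tsc22d3 had r = 0.769 (rho = 0.744), and r = 0.725 without the 2 strains farthest from the Ddit4 median. Within the first and the second block of numbers r was 0.795 (44 strains) and 0.790 (45 strains), and without the arrays of high thymocyte or squamous score it was 0.700. Of 11724 other genes Tsc22d3 had rank 2 in likeness to Ddit4, and Ddit4 rank 3 in likeness to Tsc22d3. Cdkn1a and Mt1 had r = 0.736 (rho = 0.691), Tsc22d3 and Cdkn1a 0.725 (rho = 0.723), and Fkbp5 and Tsc22d3 0.709 (rho = 0.638). Without the 2 farthest strains these were 0.697, 0.698 and 0.675. Each of these 4 pairs had the smallest p that the permutations can give, 1e-05, an adjusted p of 7.6e-05. Sgk1 and Zbtb16 had the lowest r of the pairs without Pdk4, 0.040 (rho = -0.013). Ddit4 and Zbtb16 had r = 0.289 (rho = 0.185), and 0.185 without the 2 farthest strains.

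Differences between the arrays of a strain, which hold no strain difference, were related as well. Over 79 strains with 2 arrays the 21 pairs without Pdk4 had r between 0.247 and 0.702, and 20 passed by Pearson's r but 11 by Spearman's rho. Over strain means these counts were 20 and 18. Ddit4 and Mt1 had r = 0.702 (rho = 0.562), Cdkn1a and Mt1 0.657 (rho = 0.576), and Zbtb16 and Cdkn1a 0.648 (rho = 0.607). Without the 2 strains farthest out these were 0.620, 0.572 and 0.615. Other pairs rested on those strains. Fkbp5 and Sgk1 had 0.422 with them and 0.086 without them, and Fkbp5 and Cdkn1a 0.247 and -0.065. For Pdk4 the pairs with Ddit4 and with Cdkn1a were negative, at -0.267 and -0.288, and those with Fkbp5 and with Sgk1 positive, at 0.349 and 0.312. Without the arrays of high thymocyte or squamous score (36 strains) the Cdkn1a and Pdk4 pair stood at 0.0059. Every pair without Pdk4 then had a higher r, between 0.523 and 0.798, with 0.627 for Fkbp5 and Sgk1 and 0.615 for Fkbp5 and Cdkn1a. NOD/ShiLtJ and BXA14/PgnJ, which differed most for Fkbp5 among strains with 2 arrays, were among these 36.

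Marker scores were related to the members over strain means more weakly. Of 96 relations between the 8 genes and 12 scores, 18 passed after adjustment over the 152 relations, with r between -0.453 and 0.408. Pdk4 and the erythroid score had r = -0.453 (rho = -0.404, and -0.406 without the 2 farthest strains). Tsc22d3 and the brown adipocyte score had -0.428 (rho = -0.300), and Fkbp5 and the same score -0.336. Fkbp5 had 0.408 with the thymocyte score (rho = 0.398) and -0.351 with the adventitial fibroblast score (rho = -0.296). Without the arrays of high thymocyte or squamous score (76 strains) the Fkbp5 values were 0.133 and -0.185. By rho 15 of the 96 relations passed. The part of cell composition in the relations among members was tested only by leaving out arrays, as given above.

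The genes most like each member over the 94 strain means, among the named genes other than the members themselves, are given as descriptions. Nearest to Ddit4 were Nfkbia, an inhibitor of NF-kappaB (r = 0.837), and Errfi1, a negative regulator of EGF receptor signalling (0.766). Nearest to Fkbp5 were Trp53inp1, a stress-induced p53 target (0.780), and Foxo3, a FoxO transcription factor (0.759). Nearest to Tsc22d3 were Herpud1, of endoplasmic reticulum protein degradation (0.794), and the transcription factor Cebpd (0.777). Nearest to Zbtb16 were Chst15, a chondroitin sulfotransferase (0.714), and the transcription factor Klf15 (0.703), and nearest to Sgk1 were Errfi1 (0.608) and Klf6 (0.591). Cdkn1a was nearest to Lrrc8a, a subunit of volume-regulated anion channels (0.792), and the transcription factor Nfil3 (0.738), and Mt1 to Aldh1l1, an enzyme of folate metabolism (0.820), and Fbxo31 (0.804). Pdk4 stood apart: its nearest genes were Dpm1, of dolichol-phosphate mannose synthesis (0.903), and Mkln1 (0.901), and its lowest r was with Cdipt, phosphatidylinositol synthase (-0.898).

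Other genes of the same pathways were counted from lists. Each list gene was represented by its probe set of highest mean level, while shares of all probe sets include every probe set, so these sets are unlike. The lists were also chosen with earlier results of these data known, so the counts are descriptions. Of 23 measured genes on a list of 27 other glucocorticoid-responsive genes, 20 passed the strain test (46.5% of all probe sets did), with a median intraclass correlation of 0.381, against 0.508 for the 13 member probe sets and 0.182 for all. Errfi1 had 0.767, Nfil3 0.688, Klf15 0.645 and Map3k6, a stress kinase, 0.638. Anxa1, Dusp1 and Adra1b did not pass. For 13 of the 23 the highest strain was C58/J or AXB1/PgnJ, where this held for 535 of 11725 named genes, and for 11 the lowest was RIIIS/J, where this held for 1428 of 11725. RIIIS/J was also the lowest for 7 of 8 endothelial and 4 of 6 adventitial fibroblast markers, and its endothelial scores were -1.37 and -1.57. Errfi1 ran between 6.39 in RIIIS/J and 10.90 in C58/J, and Cebpd between 5.64 in RIIIS/J and 10.12 in AXB1/PgnJ.

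Against C57BL/6J, 1 of the 23 was lower in A/J (0.376% of all probe sets) and 2 in C3H/HeJ (0.735% of all). Map3k6 was lower in A/J, with a log2 difference of -1.96 (limma, adjusted p = 0.00731) and in C3H/HeJ, with -2.34 (adjusted p = 0.000428), and Nfil3 in C3H/HeJ, with -1.58 (adjusted p = 0.0106). The median difference over the list was -0.23 in A/J, -0.31 in DBA/2J and -0.44 in C3H/HeJ, smaller in size than over the members. Within the families 5 of the 23 passed in AXB/BXA (3.81% of all probe sets), 12 in BXD (15.1% of all) and 3 in BXH (1.26% of all).

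Of 8 measured genes of the receptor machinery 5 passed the strain test, near the 46.5% of all probe sets. Hsd11b1, the enzyme that regenerates active glucocorticoid inside cells, had an intraclass correlation of 0.807 and ran between 7.83 in CE/J and 11.49 in BXD2/TyJ. Nr3c1, the glucocorticoid receptor itself, had 0.148 and did not pass (limma, adjusted p = 0.100). Neither end of the Hsd11b1 order was an end strain of the members.

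Of 22 measured genes of metal handling 9 passed, where 46.5% of all probe sets did, with a median intraclass correlation of 0.179, against 0.182 for all. Slc39a14, a zinc and manganese importer, had 0.665 and ran between 5.44 in RIIIS/J and 9.91 in AXB1/PgnJ, the same end strains as Mt1. Mtf1, the metal-sensing factor, had 0.179 and did not pass (limma, adjusted p = 0.0722). Of 16 measured fasting and FoxO or PPAR target genes 11 passed, of 16 p53 targets 12, of 11 hypoxia targets 8, of 13 acute phase genes 11 and of 15 circadian clock genes 13, where 46.5% of all probe sets passed. Pdk2, another kinase of pyruvate dehydrogenase, was lower in C3H/HeJ than in C57BL/6J, with a log2 difference of -1.72 (limma, adjusted p = 0.00677). Of the clock genes, Bhlhe40 was higher in C3H/HeJ by 1.35 (adjusted p = 0.0311), and Npas2 was lower, with -1.20 (adjusted p = 0.00909).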

How the data were processed

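Aortic RNA of 188 arrays was measured. GCOS and RMA made the values, per the submitters' processing notes, and the authors deposited log2 levels, 1 per probe set and array. Software versions were not given in the sources used here. Array medians ran between 4.55 and 4.88. Of 22416 probe sets, 89 controls were dropped. Names came from the platform annotation, where 17783 of the 22327 probe sets tested had 1 symbol, 284 several and 4260 no entry. The members, the gene lists and the naming rule (every probe set of each member, its extreme strains and its nearest genes) were chosen with earlier results of these data known. Fits used R 4.3.3 and limma 3.58.1, with Benjamini-Hochberg adjustment over 22327 probe sets at 0.05: a moderated F test across strains, parental contrasts in a fit of all strains (93 residual degrees of freedom), F tests within families and family contrasts on strain means. BXD32/TyJ, with an unexplained suffix in its descriptions, was left out of these fits. Correlations used Python 3.11.15 and scipy 1.17.1. No counts lie behind array levels, so the number of arrays limits precision. Alternatives changed the level filter, centring, number block, marker scores, probe set choice, prior and samples. Scripts were tested on simulated data.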

Additional observations from a re-analysis of the deposited data

Results flagged for a closer look

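In the 3 strains with 4 arrays, the 8 genes gave 24 groups, which were searched for a single array far from the others. In AXB19b/PgnJ the first array had a Ddit4 level of 8.38, while the other 3 lay between 7.84 and 7.92. The gap to the nearest array was 0.853 of the group's range, above the critical 0.829. Chance alone singles out about 1 in 20 such groups, and this was 1 of 24. On that array Tsc22d3 was also the highest of the 4, at 9.87, and the squamous epithelium score was 4.04. The second array, with a Ddit4 level of 7.90, had a squamous score of 3.76. The first array also had the highest B cell (2.95), erythroid (1.91) and macrophage (1.07) scores of the 4. The part of these scores was not tested.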

How the results depend on the processing

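Counts are given as member probe sets and as all probe sets that passed, with the value reported above in brackets. With BXD32/TyJ included, 1627 (3361) of all passed in BXD. With a mean level of at least 5, 2 (1) members passed in DBA/2J and 2 (1) in BXH, and after centring of arrays 2 in DBA/2J. With the number block as covariate 0 members passed in DBA/2J and 1 (4) in C3H/HeJ. Without arrays of high thymocyte or squamous score 0 members passed in DBA/2J, 1 in C3H/HeJ, 0 (3) in AXB/BXA and 2 in BXH. All probe sets then numbered 277 (144) in A/J, 179 (117) in DBA/2J, 598 (278) in C3H/HeJ, 230 (851) in AXB/BXA, 1181 in BXD and 162 (281) in BXH. The family contrasts then gave 193 (495) for AXB/BXA against BXD, 36 (72) for AXB/BXA against BXH and 18 (41) for BXD against BXH. With marker scores as covariates 3 members passed in DBA/2J, 5 in AXB/BXA and 0 in BXH, and of all 427 in A/J, 186 in DBA/2J, 808 in C3H/HeJ, 6307 in AXB/BXA, 105 in BXH and 130 for AXB/BXA against BXH. With 1 probe set per gene 8 members, all those tested, passed the strain test and 0 in BXH, and 46 of all for AXB/BXA against BXH, with fewer probe sets tested. A trended and robust prior gave 2 members in BXH. The strain test over all (10375) gave 6651 with numbers up to 1038, 3107 with numbers from 1067 and 6852 with consecutive numbers only, each with fewer arrays. In a fit of the parents alone 78 passed in A/J, 65 and 0 members in DBA/2J and 152 in C3H/HeJ. The causes were otherwise not tested.

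With 1 array or strain left out in turn, member counts ran between 12 and 13 for the strain test, 0 and 0 in A/J, 0 and 1 in DBA/2J, 0 and 5 in C3H/HeJ, 1 and 5 in AXB/BXA, 10 and 13 in BXD and 0 and 4 in BXH. All probe sets ran between 8322 and 11328 for the strain test, 53 and 272 in A/J, 54 and 130 in DBA/2J, 73 and 1123 in C3H/HeJ, 506 and 1038 in AXB/BXA, 2307 and 5046 in BXD and 88 and 551 in BXH. A strain left with 1 array was assumed to vary like the others. Counts over all moved by over 1.5 times without A/J array 1 (53) and C57BL/6J arrays 1 (95) and 3 (272) for A/J, and without DBA/2J array 1 (72) or 2 (54) for DBA/2J. For C3H/HeJ they were 83 and 73 without its arrays 1 and 2, and 150, 108 and 1123 without C57BL/6J arrays 1, 2 and 3. They were 506 without AXB1/PgnJ, 5046 without BXD22/TyJ, and 551, 88 and 491 without BXH2/TyJ, BXH4/TyJ and BXH9/TyJ.

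Strain differences of Pdk4 had a limma adjusted p of 0.0696 with BXD32/TyJ included, 0.0593 with numbers up to 1038, 0.512 with numbers from 1067 and 0.135 with consecutive numbers only. Of the pairs over differences within a strain 15 (24) passed with numbers from 1067 and 15 without the 2 farthest strains, and of the marker relations 10 (18) with numbers from 1067. Signs turned for Tsc22d3 with the macrophage score (r = -0.022, numbers up to 1038), for Sgk1 with the B cell score (0.0074, numbers from 1067), and, without the arrays of high score, for Cdkn1a with Pdk4 within strains (0.0059) and Ddit4 with the thymocyte score (-0.042). No paired analysis was possible because replicate numbers only name the arrays of a strain and link no arrays across strains. Most strain means rest on 2 arrays, and 9 on 1, which limits their precision.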
